A study of Mus musculus with 11 samples.

Results

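Genes of the major histocompatibility complex (MHC) and of antigen presentation were read in mouse skin after bone marrow transplant. A gene was taken when its symbol begins with H2-, the mouse name of the MHC, or is Cd74, Ciita, Tap1, Tap2 or B2m. The rule found 18 of the 754 genes in the table, 9 of class I and 9 of class II, and the transcripts of Ciita and B2m are not analysed here. All 9 class I genes and 8 of the class II genes passed the filter on low values, a normalized count of at least 20 in at least 3 mice, which 696 genes passed in all. The remaining class II gene, H2-Ea-ps, is described with the low genes.

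Skin came from the nape of the neck of 11 female mice that were young adults when used and had all received 850 cGy of radiation, then bone marrow cells and splenocytes intravenously, with tissue taken after 7 weeks. The syngeneic group held 3 C57BL/6J recipients (strain labelled C57BL/6j), the allo-WT group 3 wild-type C57BL/6J recipients, and the allo-MCd group 5 B6.Cg-KitW-sh/HNihrJaeBsmGlliJ recipients, which lack mast cells through the W-sh allele of Kit. By the sample labels every mouse had an LP/J donor, whereas the methods give C57BL/6J donors to the syngeneic group and LP/J donors to both allogeneic groups. The W-sh strain is 1 inbred line that also differs from wild type outside mast cells, so effects of mast cells and of the allele cannot be told apart, and no syngeneic transplant into W-sh mice is among these samples. From each mouse 100 ng of RNA was counted on the NanoString Myeloid Innate Immunity panel, in which color-coded probes are counted without amplification.

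Class I molecules, such as those encoded by H2-K1 and H2-D1, sit on nearly all nucleated cells and show peptides made inside the cell to CD8 T-cells, after the transporter made of Tap1 and Tap2 has carried these peptides into the endoplasmic reticulum. Class II molecules, here mainly H2-A, built of the chains of H2-Aa and H2-Ab1, are found on dendritic cells, macrophages, B cells and Langerhans cells and show ingested peptides to CD4 T-cells. The invariant chain encoded by Cd74 guards the class II groove until H2-DM exchanges its remnant for a peptide, a step that H2-O restrains. LP/J and C57BL/6 mice share the b haplotype of the MHC and differ in minor histocompatibility antigens, and interferon gamma is the classical inducer of both classes.

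The promoters of the members are shown first because the paralogs H2-DMb1 and H2-DMb2, which had different calls in skin, can be read side by side in them. RefSeq promoter windows of GRCm38.p6, 300 bases long around a gene's start, were at hand for 13 of the 18 genes, 7 of class I and 6 of class II. The letter patterns named next were searched on both strands and were chosen after the promoters had been read. The Y box (TGATTGG, which holds the CCAAT box of NF-Y on its other strand) stood in 5 of the 6 class II genes and 4 of the 7 class I genes, against 7.82% of 32851 promoters. The X box, where the RFX complex binds, was searched as AACNNATGA and stood in 4 of 6 class II and 0 of 7 class I genes, against 2.85% of promoters. A kappa B pattern (GGGATTCCC) stood in H2-K1 and H2-D1 and in 0.353% of all promoters. The interferon element, read as TTTCNNTT, stood in 6 of 7 class I and 2 of 6 class II genes, against 23.9%. The patterns share no letters with each other in the stretches printed. These matches are a description of letters and not of binding. In the 5 class II stretches that follow, the capitals mark the X box and then the Y box, and H2-Aa holds the Y box alone. They lie on chr17:34287855-34287885 (minus strand), chr17:34305766-34305824, chr17:34153087-34153146, chr17:34145116-34145175 and chr17:34238808-34238864 (plus strand), in the order printed.
H2-Aa: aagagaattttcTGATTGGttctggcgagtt
H2-Eb1: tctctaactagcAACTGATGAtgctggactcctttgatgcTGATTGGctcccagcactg
H2-DMb1: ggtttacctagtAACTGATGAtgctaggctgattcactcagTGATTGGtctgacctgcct
H2-DMb2: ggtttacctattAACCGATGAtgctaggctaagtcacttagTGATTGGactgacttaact
H2-Ob: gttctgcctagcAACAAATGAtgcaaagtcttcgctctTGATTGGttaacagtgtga

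Of the class I stretches, H2-K1 (chr17:34000321-34000469, minus strand) and H2-D1 (chr17:35262912-35263059, plus strand) carry the kappa B pattern, the interferon element and the Y box in capitals, the last on the other strand as CCAATCA. They are printed because both genes were called in the same direction in the same comparisons. H2-Q10 (chr17:35469922-35469953, plus strand) shows the interferon element alone, and Tap1 (chr17:34187322-34187352, plus strand) the Y box.
H2-K1: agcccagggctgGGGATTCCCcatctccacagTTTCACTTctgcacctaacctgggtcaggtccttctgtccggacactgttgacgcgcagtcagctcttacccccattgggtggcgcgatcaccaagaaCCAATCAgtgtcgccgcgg
H2-D1: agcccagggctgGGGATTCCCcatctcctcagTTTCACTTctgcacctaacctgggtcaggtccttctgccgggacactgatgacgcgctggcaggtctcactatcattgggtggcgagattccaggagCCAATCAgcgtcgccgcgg
Tap1: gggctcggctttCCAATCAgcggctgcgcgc
H2-Q10: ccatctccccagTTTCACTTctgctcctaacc

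In allo-WT skin 6 of the 9 class I genes (H2-K1, H2-D1, H2-Q1, H2-T23, Tap1 and Tap2) were higher than in syngeneic skin and none of the 8 class II genes was, where 28.3% of all 696 genes tested were called higher and 14.9% lower. In allo-MCd skin the same 6 class I genes and H2-M3, which had not risen in allo-WT, were lower than in allo-WT. There 6 class II genes (Cd74, H2-Aa, H2-Ab1, H2-Eb1, H2-DMa and H2-DMb1) were lower than in both other groups. Over all genes 50.0% were called lower in allo-MCd skin against allo-WT and 36.9% against syngeneic. With each mouse scaled to the same median gene, only H2-Q1, H2-T23 and Tap1 of class I were still called lower against allo-WT (30.3% of all genes), and class II kept 5 of the 6 against allo-WT and all 6 against syngeneic (13.5% of all genes). That scaling also called the class II genes H2-DMb2 and H2-Ob higher in allo-MCd skin than in allo-WT (35.6% of all genes). Differences were tested with limma on log2(value + 1) over all 696 genes, with Benjamini-Hochberg adjustment, and a gene counted as called when its adjusted p did not exceed 0.05. Two-sided exact permutation tests over the mice were added, which can give no p below 0.0179 for 3 mice against 5 and none below 0.1 for 3 against 3. Replicates are separate mice by their labels.

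The deposited values are scaled by the authors to housekeeping genes, and their geometric mean over 20 such genes was 1104.0 in 10 of the mice and 1089.2 in allo-MCd mouse 5. On that scale the median log2 difference over all genes tested was 0.21 for allo-WT minus syngeneic, -0.72 for allo-MCd minus allo-WT and -0.59 for allo-MCd minus syngeneic. When each mouse was also scaled to the same median gene, called median scaling here, these medians became -0.04, 0.12 and -0.01, so the median-scaled value or call is given beside each member difference that was called. Recovered totals were 831632 to 1460260 counts per mouse, and background, the mean plus 2 SD of the negative control probes, was 14.3 to 37.5 normalized counts. Allo-WT mouse 1 had the lowest total and the weakest top positive control (3975 counts, with 17615 the next lowest), and results that rest on it are named. The genes H2-K1, H2-D1 and the H2-Q family are closely related in sequence, as are H2-DMb1 and H2-DMb2, and cross-reading between their probes was not tested.

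H2-Aa, the alpha chain of H2-A, had 57289, 42678 and 52793 normalized counts in the syngeneic mice and 50915, 78819 and 61788 in the allo-WT mice. The allo-MCd mice had 11019, 13426, 17989.8, 16301 and 25594. Every allo-MCd value lay below every value of the other groups, which overlapped each other. The means were 50920.0 ± 7483 (SD, n = 3), 63841 ± 14065 (SD, n = 3) and 16866 ± 5563 (SD, n = 5). H2-Aa was 3.88-fold lower in allo-MCd skin than in allo-WT (log2 difference -1.96, SE 0.29, limma adjusted p = 0.000112, exact permutation p = 0.0179). It was 3.12-fold lower than in syngeneic skin (-1.64, SE 0.29, limma adjusted p = 0.00161, exact permutation p = 0.0179). Median scaling left both calls in place, at -1.11 and -1.05. The allo-WT and syngeneic groups differed by 0.31 with a standard error of 0.32, and this was not called (limma adjusted p = 0.433).

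H2-Ab1 encodes the partner chain of H2-Aa. Its normalized counts were 31955, 20992 and 25257 in syngeneic, 22030.1, 36963 and 27836 in allo-WT, and 5921, 7275, 9716, 8573 and 12877 in allo-MCd mice. The allo-MCd mice again lay below all others. The log2 differences were -1.72 (SE 0.28, limma adjusted p = 0.000225) for allo-MCd minus allo-WT and -1.58 (SE 0.28, limma adjusted p = 0.00161) for allo-MCd minus syngeneic, with an exact permutation p of 0.0179 for each. Under median scaling they were -0.88 and -0.99 and stayed called.

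The 2 chains of H2-A kept close step within each mouse. The log2 difference of H2-Aa minus H2-Ab1, in which a mouse's scaling factor cancels, was 0.84, 1.02 and 1.06 in the syngeneic, 1.21, 1.09 and 1.15 in the allo-WT and 0.90, 0.88, 0.89, 0.93 and 0.99 in the allo-MCd mice. The allo-WT values lay above all others by a small margin, while syngeneic and allo-MCd values overlapped. The size of such a difference depends on both probes, so it is compared between mice and not read as a ratio of transcripts.

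H2-Eb1 encodes the beta chain of the second class II molecule, H2-E, whose alpha chain gene H2-Ea is not expressed from the b haplotype. Its normalized counts were 13143, 8118 and 9679 in syngeneic, 7263, 13218 and 10598 in allo-WT, and 2504, 2343, 4374, 3771 and 5459.8 in allo-MCd mice. The allo-MCd mice were the lowest 5 of the 11. H2-Eb1 was lower in allo-MCd by -1.52 (SE 0.31, limma adjusted p = 0.00111) against allo-WT and by -1.53 (SE 0.31, limma adjusted p = 0.00312) against syngeneic skin. Under median scaling the differences were -0.68 and -0.94, both called. The methods' test, a 3-group test with Tukey's comparison on the linear scale, did not call that against syngeneic skin after Benjamini-Hochberg adjustment.

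Cd74, the invariant chain, had 64184, 44037 and 53763 normalized counts in syngeneic mice and 33778, 76233 and 63948 in allo-WT mice. In the allo-MCd mice the values were 12916, 14033, 20729.5, 17634 and 28102. Allo-WT mouse 1 held the lowest Cd74 of its group, yet it lay above the highest allo-MCd mouse. The means were 53995 ± 10076 (SD, n = 3), 57986 ± 21847 (SD, n = 3) and 18683 ± 6101 (SD, n = 5). Cd74 was 3.05-fold lower in allo-MCd skin than in allo-WT (log2 difference -1.61, SE 0.33, limma adjusted p = 0.00123, exact permutation p = 0.0179) and 2.97-fold lower than in syngeneic skin (-1.57, SE 0.33, limma adjusted p = 0.00351, exact permutation p = 0.0179). These became -0.77 and -0.98 under median scaling, both called. Under quantile normalization neither was called, at -0.36 and -0.75 (limma adjusted p of 0.369 and 0.128). The methods' test with Benjamini-Hochberg adjustment did not call Cd74 against syngeneic skin either (adjusted p = 0.0753).

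H2-DMa and H2-DMb1 encode the chains of H2-DM, the exchange factor of the class II pathway. H2-DMa had 2246, 1628 and 1893 normalized counts in syngeneic, 935, 2102 and 1788 in allo-WT and 556, 504, 709.7, 654 and 1132 in allo-MCd mice. Allo-WT mouse 1 fell inside the allo-MCd range, and the syngeneic mice lay above it. Of H2-DMb1 there were 1012, 658 and 850.1 in syngeneic, 644, 1044 and 779 in allo-WT, and 220.2, 245, 285, 297 and 455 in allo-MCd mice, with no overlap of the allo-MCd mice with either group.

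Against syngeneic skin, H2-DMa was lower in allo-MCd by -1.48 (SE 0.30, limma adjusted p = 0.00317) and H2-DMb1 by -1.51 (SE 0.26, limma adjusted p = 0.00161), and both kept the call under median scaling (-0.89 and -0.92). Against allo-WT skin the differences were -1.16 (SE 0.30, limma adjusted p = 0.00566) and -1.47 (SE 0.26, limma adjusted p = 0.000436). Median scaling ended the H2-DMa call (-0.31, limma adjusted p = 0.350) and left that of H2-DMb1 (-0.63, limma adjusted p = 0.0292). Quantile normalization also ended the H2-DMa call against allo-WT (-0.45, limma adjusted p = 0.175), and the methods' test with Benjamini-Hochberg adjustment called H2-DMa in neither comparison.

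H2-DMb2, the paralog of H2-DMb1, followed another course. Its normalized counts were 443, 541 and 503 in syngeneic, 98.9, 233 and 305 in allo-WT, and 184, 140.0, 223, 181 and 359 in allo-MCd mice. Both allogeneic groups lay below every syngeneic mouse and overlapped each other. H2-DMb2 was 2.57-fold lower in allo-WT skin than in syngeneic (log2 difference -1.36, SE 0.41, limma adjusted p = 0.0194, exact permutation p = 0.1) and was the 1 class II gene called in that comparison. Leaving out syngeneic mouse 2 (-1.30) or 3 (-1.35) ended the call, each with a limma adjusted p of 0.0545, as did leaving out allo-WT mouse 1 (-0.89, limma adjusted p = 0.0740), while median scaling gave -1.61 (limma adjusted p = 0.00614). It was 2.39-fold lower in allo-MCd skin than in syngeneic (-1.26, SE 0.37, limma adjusted p = 0.0178, exact permutation p = 0.0179). Leaving out syngeneic mouse 2 or 3 ended that call (-1.19 and -1.24, limma adjusted p of 0.0543 and 0.0589), and so did median scaling (-0.67, limma adjusted p = 0.182) and quantile normalization (-0.59, limma adjusted p = 0.218).

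Between the allogeneic groups H2-DMb2 differed by 0.11 with a standard error of 0.37 and was not called (limma adjusted p = 0.812), while median scaling gave 0.94, higher in allo-MCd (limma adjusted p = 0.0325). Within a mouse, H2-DMb2 minus H2-DMb1 was -1.19, -0.28 and -0.76 on the log2 scale in syngeneic, -2.69, -2.16 and -1.35 in allo-WT, and -0.26, -0.80, -0.35, -0.71 and -0.34 in allo-MCd mice. All 3 allo-WT values lay below the 8 others, whatever the scaling. The printed promoters of both genes hold the X and Y boxes at the same spacing.

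H2-Ob encodes the beta chain of H2-O, the inhibitor of H2-DM that is best known from B cells. Its normalized counts were 124, 129 and 123.5 in syngeneic, 63.4, 70.5 and 94.5 in allo-WT, and 71.4, 66.8, 91.9, 52.6 and 176 in allo-MCd mice. The syngeneic mice lay within a narrow band above all 3 allo-WT mice, and allo-MCd mouse 5 lay above them. No difference was called on the deposited scale (-0.73 for allo-WT minus syngeneic, limma adjusted p = 0.140, and -0.58 for allo-MCd minus syngeneic, limma adjusted p = 0.191). Without allo-MCd mouse 5 both were called (-0.73, limma adjusted p = 0.0471, and -0.85, limma adjusted p = 0.0196). Median scaling called H2-Ob lower in allo-WT skin than in syngeneic (-0.98, limma adjusted p = 0.0263) and higher in allo-MCd skin than in allo-WT (0.99, limma adjusted p = 0.0111).

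**Figure D1:**
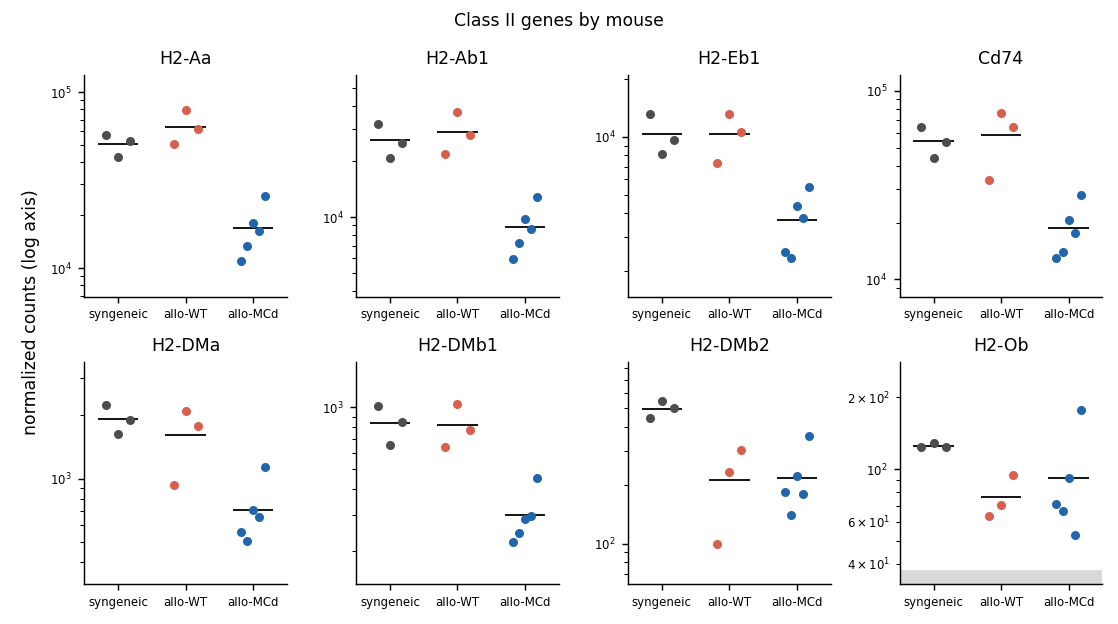
Normalized counts (log axis) of the 8 class II genes tested, 1 point per mouse in the 3 groups, with the group mean as a line and the range of background over mice in grey where it falls in view. The 5 allo-MCd mice lie below all other mice for H2-Aa, H2-Ab1, H2-Eb1, Cd74 and H2-DMb1, while H2-DMb2 is already lower in allo-WT skin than in syngeneic mice.

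Counted over class II, 6 of 8 genes tested were lower in allo-MCd skin than in allo-WT and 0 were higher, where 50.0% of all genes tested were called lower and 10.9% higher. The median class II difference was -1.49, against -0.72 over all genes. Under median scaling 5 of 8 were lower and 2 higher, against 30.3% lower and 35.6% higher over all genes. With voom on counts scaled to library totals, chosen after seeing the data, 3 of 8 were lower and 2 higher (H2-DMb2 and H2-Ob), near the 28.7% lower and 36.9% higher of all genes, and the calls of Cd74 (-0.68), H2-Eb1 (-0.59) and H2-DMa (-0.26) were lost. Against syngeneic skin, 7 of 8 were lower in allo-MCd and 0 higher, with a background of 36.9% lower and 4.6% higher and a median of -1.52 against -0.59. Median scaling left 6 of 8 lower and 0 higher, against 13.5% lower and 13.9% higher. For allo-WT minus syngeneic, 0 were higher and 1 lower, against 28.3% and 14.9% of all genes, at a median of -0.02 against 0.21. Median scaling gave 0 higher and 2 lower (H2-DMb2 and H2-Ob), against 24.3% and 27.3%.

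Markers of cells that carry class II were read beside these genes, and their part in the differences was not tested. Of the macrophage and monocyte list, 11 of 13 genes were in the table, and their summed normalized counts were 26860.2 to 33599.6 in syngeneic, 58884 to 86566 in allo-WT and 8525.0 to 16011 in allo-MCd mice. All 11 were lower in allo-MCd skin than in allo-WT, 10 were lower than in syngeneic skin, and 5 were higher in allo-WT skin than in syngeneic. Over all genes tested, 50.0% were lower in the first of these comparisons, 36.9% in the second and 28.3% higher in the third. Among them Csf1r, the receptor that macrophages need to survive, lay between 2349.8 and 4058 in syngeneic, 3401 and 5475 in allo-WT, and 752.5 and 1668 in allo-MCd mice. The 6 of 11 dendritic cell genes in the table summed to 454 to 545, 413 to 618 and 175 to 412 in the same order. Dendritic cell genes were called lower in allo-MCd for 3 of 6 against each group, a share near the 50.0% and 36.9% of all genes, and 0 of 6 were called between allo-WT and syngeneic skin. The B-cell gene Ms4a1 lay at 6.62 to 19.4 in syngeneic, 17.9 to 49.8 in allo-WT and 6.49 to 15.0 in allo-MCd mice, above background in 2 of the 11 mice. Under median scaling 9 of the 11 macrophage genes were lower in allo-MCd skin than in allo-WT, 5 were lower than in syngeneic, and 5 were higher with allo-WT, against 30.3%, 13.5% and 24.3% of all genes, while of the dendritic cell genes 1 was called lower in each comparison. Neither Langerhans cell gene of the list was in the table. In bulk skin, fewer cells of a type and less RNA per cell cannot be told apart.

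Of the other marker lists, the mast cell genes check the labels, with summed counts of 3851 to 9348 in syngeneic, 2397 to 14802.5 in allo-WT and 139 to 656 in allo-MCd mice. None of the 7 of 9 genes in the table was at 0 in every mouse of a group, and 2 of the 7 were above background in all allo-MCd mice. Kit, the gene that carries W-sh, lay at 54.1 to 126, 11.9 to 91.3 and 7.98 to 21.7, and no allo-MCd value was above background. The T-cell gene Cd247 lay at 133 to 165.5, 139 to 178 and 39.9 to 113. Neutrophil genes (8 of 8) summed to 531.5 to 761.7 in syngeneic, 3955.0 to 134198 in allo-WT and 566 to 1189 in allo-MCd skin. Endothelial (3 of 8), fibroblast (4 of 8) and keratinocyte (1 of 8) genes, which mark cells of the tissue itself, stayed above background in every mouse. Their summed counts were 1112 to 1727, 522 to 613 and 455 to 1109.5 for endothelium, 83886 to 180112, 11664 to 132550.5 and 34579 to 81942 for fibroblasts, and 2216 to 4748, 3955.0 to 6371 and 4652 to 5187 for the keratinocyte gene Cdh1, in the order syngeneic, allo-WT and allo-MCd.

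Most class I genes were highest in allo-WT skin. H2-K1, which encodes a classical class I heavy chain, had 18004, 22840.1 and 19339 normalized counts in syngeneic, 34133, 47278 and 48145 in allo-WT, and 14796, 17044, 19590.1, 24202 and 22492 in allo-MCd mice. All 3 allo-WT mice lay above the 8 other mice, and syngeneic and allo-MCd mice overlapped. H2-K1 was 2.14-fold higher in allo-WT skin than in syngeneic (log2 difference 1.10, SE 0.26, limma adjusted p = 0.00601, exact permutation p = 0.1). It was 2.21-fold lower in allo-MCd skin than in allo-WT (-1.14, SE 0.23, limma adjusted p = 0.00115, exact permutation p = 0.0179). Between allo-MCd and syngeneic skin the difference was -0.05 with a standard error of 0.23 (limma adjusted p = 0.880). Median scaling kept the rise in allo-WT (0.84, limma adjusted p = 0.0163) but not the difference of allo-MCd from allo-WT (-0.30, limma adjusted p = 0.263).

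H2-D1, the other classical heavy chain, gave the same picture. Its normalized counts were 22129.9, 17977 and 20241 in syngeneic, 34513, 39969 and 40096 in allo-WT, and 11944, 15303, 18970.2, 18006 and 20219.6 in allo-MCd mice. Every allo-WT mouse lay above all 8 others. H2-D1 was higher in allo-WT skin than in syngeneic by 0.93 (SE 0.25, limma adjusted p = 0.0107) and lower in allo-MCd skin than in allo-WT by -1.20 (SE 0.22, limma adjusted p = 0.000574). Under median scaling the first stayed called (0.67) and the second did not (-0.35, limma adjusted p = 0.105). Quantile normalization ended the calls of H2-K1 (0.56) and H2-D1 (0.45) for allo-WT minus syngeneic (limma adjusted p of 0.216 and 0.208).

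The transporter genes moved with the heavy chains. Tap1 had 895, 1348 and 1025 normalized counts in syngeneic, 2872, 3519 and 3153 in allo-WT, and 781, 895, 1160.1, 1895 and 1056 in allo-MCd mice. Allo-WT mice were the highest 3 of 11, and allo-MCd mouse 4 was the highest of the rest. Its rise in allo-WT over syngeneic skin was 2.95-fold (log2 difference 1.56, SE 0.29, limma adjusted p = 0.00147, exact permutation p = 0.1), and it had the lowest adjusted p of the members in this comparison. In allo-MCd it was lower than in allo-WT by -1.52 (SE 0.26, limma adjusted p = 0.000339) and differed from syngeneic by 0.04 (SE 0.26, limma adjusted p = 0.915). Median scaling kept both calls, at 1.31 and -0.68, and voom on library totals ended the second (-0.60, limma adjusted p = 0.0973).

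Tap2 had 669, 741 and 699 normalized counts in syngeneic, 1029, 1837 and 1369 in allo-WT, and 478, 493, 689, 838 and 675 in allo-MCd mice. The allo-WT mice again lay above the rest. Tap2 was higher in allo-WT skin than in syngeneic by 0.97 (SE 0.26, limma adjusted p = 0.0113) and lower in allo-MCd skin than in allo-WT by -1.15 (SE 0.23, limma adjusted p = 0.00114). The second was not called under median scaling (-0.30, limma adjusted p = 0.296), and the first was (0.71, limma adjusted p = 0.0469), though not with voom on library totals (0.64, limma adjusted p = 0.0872).

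Of the non-classical class I genes, H2-T23 encodes Qa-1, which presents signal peptides of other class I molecules to natural killer cell receptors. It had 1949.8, 1329 and 1245 normalized counts in syngeneic, 2859.6, 3574 and 2698 in allo-WT, and 528, 729.6, 993, 1090.4 and 1052 in allo-MCd mice, with no overlap between any pair of groups. H2-T23 was higher in allo-WT skin than in syngeneic by 1.03 (SE 0.29, limma adjusted p = 0.0127), a call kept under median scaling (0.78, limma adjusted p = 0.0255) and ended by leaving out syngeneic mouse 3 (0.91, limma adjusted p = 0.0545). In allo-MCd skin it was 3.56-fold lower than in allo-WT (-1.83, SE 0.26, limma adjusted p = 7.44e-05), and -0.99 under median scaling (limma adjusted p = 0.00275). It was also lower than in syngeneic skin (-0.80, SE 0.26, limma adjusted p = 0.0276, exact permutation p = 0.0357). This last call ended when syngeneic mouse 1 (-0.60, limma adjusted p = 0.130) or allo-MCd mouse 2 (-0.75, limma adjusted p = 0.0609) was left out, and under median scaling (-0.21, limma adjusted p = 0.534).

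H2-Q1, of the Qa group, had 1923, 1815 and 1667 normalized counts in syngeneic, 3405, 4853 and 3754 in allo-WT, and 837, 1007, 1307, 1702 and 1516 in allo-MCd mice. The allo-WT mice stood apart from both groups, and only allo-MCd mouse 4 reached the syngeneic range. H2-Q1 was higher in allo-WT skin than in syngeneic by 1.14 (SE 0.26, limma adjusted p = 0.00481) and lower in allo-MCd skin than in allo-WT by -1.68 (SE 0.23, limma adjusted p = 6.9e-05). Both calls held under median scaling, at 0.88 and -0.84.

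H2-M3, which presents formylated peptides of bacteria and mitochondria, differed by -0.32 in allo-WT skin against syngeneic and was not called (SE 0.28, limma adjusted p = 0.347). Its normalized counts were 509, 397 and 379 in syngeneic, 294, 327 and 405 in allo-WT, and 141, 133, 190.1, 220.2 and 253 in allo-MCd mice. The allo-MCd mice were the lowest 5 of 11, as for H2-Aa, H2-Ab1, H2-Eb1, Cd74 and H2-DMb1 of class II. H2-M3 was lower in allo-MCd skin than in syngeneic by -1.22 (SE 0.25, limma adjusted p = 0.00335) and than in allo-WT by -0.89 (SE 0.25, limma adjusted p = 0.00853). Neither was called under median scaling (-0.63, limma adjusted p = 0.0529, and -0.05, limma adjusted p = 0.844).

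The other members were low in skin. H2-Q10, a secreted class I molecule made chiefly by liver, had 59.9, 30.3 and 77.2 normalized counts in syngeneic, 142, 90.8 and 77.9 in allo-WT, and 39.5, 76.0, 1487, 40.7 and 111 in allo-MCd mice. Allo-MCd mouse 3 stood far above the 10 others, and the log2 difference of allo-MCd minus allo-WT turned from 0.20 to -0.71 without it, neither called. H2-Q2 lay at 10.2 to 33.0 over all mice and was above background in 0 of 3 syngeneic, 1 of 3 allo-WT and 1 of 5 allo-MCd mice. H2-Ea-ps, the H2-Ea gene of this haplotype, was at 3.04 to 17.96 and above background in none of the 11 mice, and it was not tested.

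**Figure D2:**
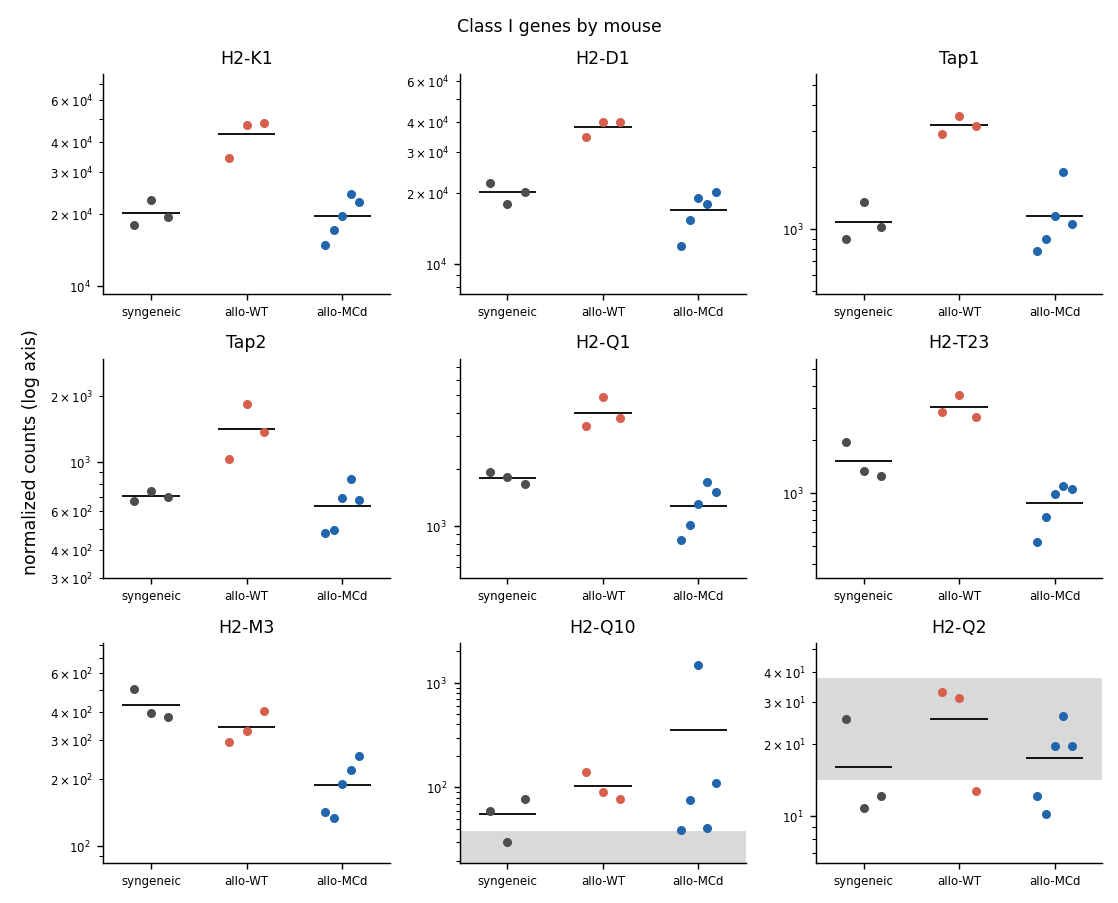
Normalized counts (log axis) of the 9 class I genes, 1 point per mouse in the 3 groups, with the group mean as a line and the range of background over mice in grey where it falls in view. The 3 allo-WT mice lie above all 8 others for H2-K1, H2-D1, Tap1, Tap2, H2-Q1 and H2-T23, and 1 allo-MCd mouse stands apart for H2-Q10.

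Over class I, 6 of 9 were higher and 0 lower with allo-WT than with syngeneic transplant, against 28.3% higher and 14.9% lower over all genes, with a median of 0.97 against 0.21. Median scaling called the same 6, against 24.3% and 27.3%. With voom on library totals 5 were higher, without Tap2, and 1 lower (H2-M3, -0.64, limma adjusted p = 0.0448), against 21.0% and 29.6%. For allo-MCd minus allo-WT, 7 of 9 were lower and 0 higher, against 50.0% lower and 10.9% higher, at a median of -1.15 against -0.72. Median scaling brought this to 3 of 9 lower (H2-Q1, H2-T23 and Tap1), near the 30.3% of all genes, and voom on library totals to 2 of 9, against 28.7%. For allo-MCd minus syngeneic, 2 of 9 were lower (H2-M3 and H2-T23) and 0 higher, against 36.9% lower and 4.6% higher, and median scaling left 0 called, against 13.5% lower and 13.9% higher. The median class I difference in this comparison was -0.18 on the deposited scale and 0.41 under median scaling.

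**Figure D3:**
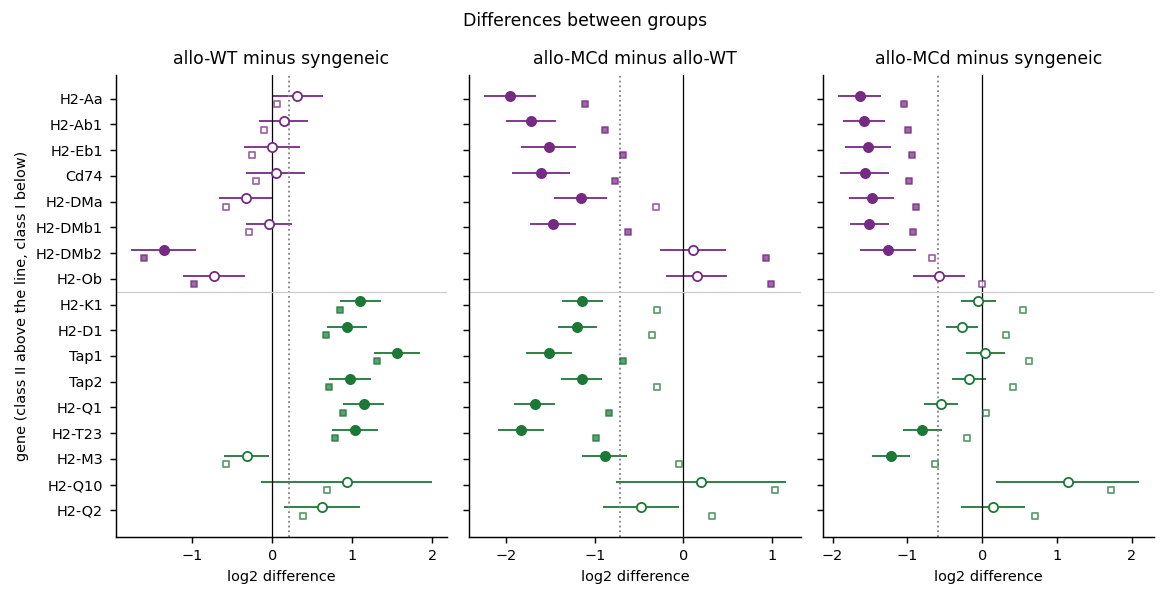
Log2 differences of the 17 genes tested in the 3 comparisons, as circles with standard errors on the deposited scale and as squares under median scaling, filled where the gene was called (limma adjusted p not above 0.05), purple for class II and green for class I. The dotted line is the median of all 696 genes on the deposited scale, and the class II circles from H2-Aa to H2-DMb1 lie left of it in both comparisons with allo-MCd.

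The balance of the classes within a mouse does not depend on how that mouse was scaled. The mean log2 value of the 8 class II genes minus that of 7 class I genes, with H2-Q10 and H2-Q2 set aside, was 0.93, 0.59 and 0.90 in syngeneic mice. It was -0.64, -0.21 and -0.21 in allo-WT and -0.07, -0.26, -0.13, -0.65 and 0.33 in allo-MCd mice. Both allogeneic groups lay below every syngeneic mouse and overlapped each other. With all 9 class I genes the values were 2.13 to 2.25, 0.63 to 1.36 and 0.63 to 1.53. Cd74 minus H2-K1 was 0.95 to 1.83 in syngeneic, -0.02 to 0.69 in allo-WT and -0.46 to 0.32 in allo-MCd mice, and H2-Ab1 minus Tap1 was 3.96 to 5.16, 2.94 to 3.39 and 2.18 to 3.61. So the class II genes were lower relative to class I in both allogeneic groups, in allo-WT where 6 class I genes had risen and in allo-MCd where 6 class II genes lay lower. These values are a description with no test.

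**Figure D4:**
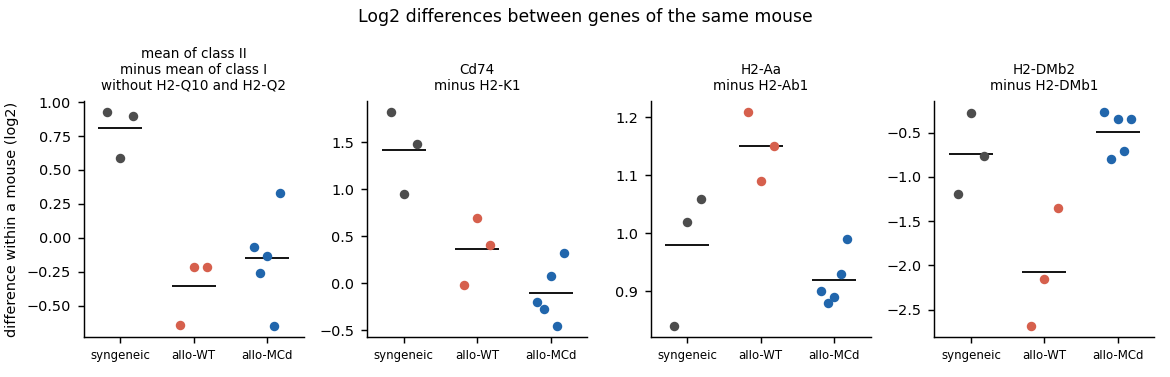
Log2 differences between genes of the same mouse, 1 point per mouse with the group mean as a line, for class II minus class I, Cd74 minus H2-K1, H2-Aa minus H2-Ab1 and H2-DMb2 minus H2-DMb1. The 3 syngeneic mice lie highest in the first and second panels, and the 3 allo-WT mice lie lowest for H2-DMb2 minus H2-DMb1 (-2.69 to -1.35).

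Genes that make and trim class I and class II peptides were read from a list of 42, of which 10 were in the table and tested. In allo-WT skin 7 of the 10 were higher than in syngeneic skin and 0 lower, and 7 of 10 were lower in allo-MCd skin than in allo-WT, against 28.3% higher and 50.0% lower over all genes. Under median scaling 6 were higher in the first comparison, and 6 were lower and 2 higher in the second, against 24.3% higher in the first, and 30.3% lower and 35.6% higher in the second. The immunoproteasome subunit Psmb9 had 800.0 ± 112 (SD, n = 3) normalized counts in syngeneic skin, 2616 ± 308 (SD, n = 3) with allo-WT and 645 ± 248 (SD, n = 5) with allo-MCd recipients. Its log2 differences were 1.71 for allo-WT minus syngeneic (limma adjusted p = 0.00131) and -2.10 for allo-MCd minus allo-WT (limma adjusted p = 5.15e-05). The partner subunit Psmb8 (1.62 and -2.08), the proteasome activator Psme2 (1.30 and -1.61) and tapasin, Tapbp (1.16 and -1.58), which loads class I beside the transporter, were called in the same directions under both scalings. None of these 4 was called between allo-MCd and syngeneic skin, where the class I heavy chains H2-K1 and H2-D1 were not called either.

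Ctss is the cathepsin that cuts the invariant chain in class II cells. Its means were 4146 ± 252 (SD, n = 3) normalized counts in syngeneic skin, 18330.0 ± 3600 (SD, n = 3) with allo-WT and 1559 ± 342 (SD, n = 5) with allo-MCd recipients. It was higher in allo-WT skin than in syngeneic (2.13, SE 0.25, limma adjusted p = 0.000112), where Cd74 differed by 0.04 with a standard error of 0.37. It was lower in allo-MCd than in both groups, by -3.57 (limma adjusted p = 5.22e-07) against allo-WT and -1.44 (limma adjusted p = 0.00130) against syngeneic skin, and all 3 calls held under median scaling.

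Of the interferon gamma axis, 10 of 20 listed genes were tested, 7 of them higher in allo-WT skin than in syngeneic and 9 lower in allo-MCd skin than in allo-WT, against 28.3% and 50.0% of all genes. The median differences were 2.56 and -2.69, and under median scaling 2.31 and -1.86, with 7 higher and 1 lower in the first comparison (24.3% and 27.3% of all genes) and 7 lower in the second (30.3%). Ifng itself lay at 8.98 to 22.7 normalized counts in syngeneic, 61.3 to 172 in allo-WT and 12.1 to 17.3 in allo-MCd mice, above background in 1, 3 and 0 mice of each group. The allo-WT mice lay above all 8 others. Irf1, a transcription factor induced by interferon gamma, was higher in allo-WT skin than in syngeneic by 2.58 (limma adjusted p = 0.000440) and lower in allo-MCd skin than in allo-WT by -2.85 (limma adjusted p = 3.06e-05). The chemokines Cxcl9 (6.11 and -5.24), Cxcl10 (5.08 and -4.20) and Cxcl11 (4.40 and -3.98), induced by the same cytokine, had larger differences. Between allo-MCd and syngeneic skin 2 of the 10 genes were lower and 0 higher, against 36.9% and 4.6% of all genes, and none of these 5 was called on the deposited scale, while median scaling called Cxcl10 higher in allo-MCd (1.47, limma adjusted p = 0.0387).

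Of 10 genes for costimulation, the second signal that antigen-presenting cells give T-cells, 8 were tested. In allo-WT skin 3 were higher than in syngeneic skin, and in allo-MCd 6 were lower than in allo-WT and 5 lower than in syngeneic skin, against 28.3% higher, 50.0% lower and 36.9% lower over all genes, with medians of 0.82, -2.20 and -0.86. Median scaling gave 0.57, -1.36 and -0.27, with 3 higher and 1 lower (24.3% and 27.3% of all genes), 5 lower and 1 higher (30.3% and 35.6%), and 2 lower (13.5%). Of 19 receptors that read MHC molecules, 3 were tested, 1 higher in allo-WT skin than in syngeneic, and 3 and 2 lower in allo-MCd skin than in allo-WT and syngeneic skin, with the same backgrounds. Their medians were 0.48, -1.97 and -0.98, and under median scaling 0.22, -1.14 and -0.39, with 1 higher, 2 lower and 1 lower, against 24.3%, 30.3% and 13.5% of all genes.

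The genes whose pattern over the 11 mice was most like the mean of the 8 class II genes were found by the root mean square difference of mean-centred log2 values. These were Il3ra, the alpha chain of the interleukin-3 receptor (0.25), Vwa5a (0.26), Batf3, a transcription factor of dendritic cells (0.29), Csf1, the growth factor of macrophages (0.29), and Arhgef6 (0.30), where the median of 679 other genes was 0.75. Among the class II genes this distance was least for H2-DMa (0.10) and largest for H2-Ob (0.62) and H2-DMb2 (0.60). These genes were picked for that likeness in the same mice, so their group differences follow from the choice. Batf3 differed by -0.31 for allo-WT minus syngeneic, -1.13 for allo-MCd minus allo-WT and -1.45 for allo-MCd minus syngeneic on the log2 scale. The 6 dendritic cell genes tested, Batf3 among them, had medians of -0.09, -0.69 and -0.93 in that order, against 0.21, -0.72 and -0.59 over all genes. Under median scaling their medians were -0.34, 0.14 and -0.35.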

How the data were processed

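RNA from skin of 11 mice was counted on the NanoString panel, and the authors normalized the counts in nSolver, whose version is not given in the sources used here. The authors deposited a linear signal with 1 column per mouse, with 14 control probes as raw counts. The labels name Trizol and the methods Ribozol for RNA extraction. All members by the rule were named, and from the lists of antigen processing and the interferon gamma axis the 5 largest differences of allo-MCd minus allo-WT. Members, lists and tests were chosen with earlier results of these data known. Of the member symbols, 17 matched RefSeq symbols of GRCm38.p6 and 1 matched a synonym. The transcripts of B2m and Ciita are not analysed here, so H2-K1 took the place of B2m in the within-mouse difference.

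Groups were compared in limma 3.58.1 (R 4.3.3) with an intensity trend, no covariate and all 3 groups in 1 fit, on log2(value + 1), so fold changes of low genes are understated. Python 3.11.15, numpy 2.4.6, pandas 2.3.3, scipy 1.17.1 and matplotlib 3.10.9 were used. The fit was tested on simulated data. Whole counts, within 0.011 of a multiple of 1 factor per mouse (0.759 to 2.54), were recovered for 99.87% to 100.0% of values. Alternatives were median scaling, rescaling to housekeeping genes, quantile normalization, a pseudocount of 20, other filters, no trend, only the groups compared, the methods' test (the 3-group test with Tukey's comparison), each mouse left out in turn, the mouse number as a replicate block, and voom on recovered counts.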

Additional observations from a re-analysis of the deposited data

Results flagged for a closer look

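H2-Q10 in allo-MCd mouse 3 had 1487 normalized counts, between 30.3 and 142 in the other 10 mice, and its gap to the next of the 5 allo-MCd mice took 0.951 of the group's range, above the 0.71 that Dixon's test allows. In the same mouse Fasn (36113, next highest 10386), Acly (15132, next highest 5469) and Fabp4 (34771, next highest 23804), genes of lipid synthesis and fat cells that were chosen after their values were seen, were also the highest of the 11 mice. H2-Ea-ps was highest in that mouse as well (13.4 normalized counts, a gap of 0.757 of the range), but this value lay below background. Of 18 groups tested in this way 2 stood out, and chance marks about 1 in 20.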

How the results depend on the processing

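Over the 51 member differences, rescaling to housekeeping genes, a pseudocount of 20, no filter, no trend, only the groups compared, and voom on recovered counts with the authors' factors (chosen after seeing the data) changed no direction or call, nor did a filter of at least 100 for the 48 it left. All of these settings keep the deposited scaling or nearly so, as the housekeeping mean was already 1104.0 in all mice but 1 (1089.2). Their unchanged calls therefore cannot show whether the results depend on normalization. The planned count tests on recovered counts were not run, and voom took their place. With voom on library totals, also added later, the counts were 1 class I gene lower for allo-WT minus syngeneic, 2 class II lower there, 2 class I lower, 2 class II higher and 3 class II lower for allo-MCd minus allo-WT, and 1 class I lower for allo-MCd minus syngeneic. Of all 696 genes it called 206 lower in the first comparison, 257 higher and 200 lower in the second, and 102 lower in the third. Median scaling and quantile normalization gave 2 class II lower for allo-WT minus syngeneic, 3 class I lower and 2 class II higher for allo-MCd minus allo-WT, and 0 class I lower for allo-MCd minus syngeneic. Of all genes, these settings called 190 and 209 lower in the first comparison and 211 and 205 lower in the second. They called 248 and 255 higher in the second, and 94 and 99 lower in the third. Over all genes tested and every setting, 136 to 207 were higher and 57 to 209 lower for allo-WT minus syngeneic (197 and 104 as reported), 44 to 257 higher and 200 to 361 lower for allo-MCd minus allo-WT (76 and 348), and 14 to 97 higher and 65 to 311 lower for allo-MCd minus syngeneic (32 and 257). In that last comparison, of the members, the methods' test gave 1 class I gene lower, and 4 class II genes lower after Benjamini-Hochberg adjustment, without Cd74, H2-DMa (adjusted p = 0.0525) and H2-Eb1 (adjusted p = 0.0565). Over all 696 genes it called 181 lower there, and 65 after that adjustment. Against allo-WT it gave 5 class II genes lower after the adjustment, without H2-DMa (adjusted p = 0.0646), and 258 of all 696 genes. Quantile normalization gave 4 class II genes lower against allo-WT, without Cd74 and H2-DMa, where 205 of all 696 genes were lower. It gave 5 against syngeneic skin, without Cd74 and H2-DMb2, where 99 of all 696 were lower.

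Signs turned mostly where a difference was small and uncalled. In the order median scaling, quantile normalization and voom on library totals, allo-MCd minus syngeneic became 0.32, 0.21 and 0.30 for H2-D1, 0.54, 0.51 and 0.53 for H2-K1, 0.41, 0.33 and 0.39 for Tap2. H2-Q2 became 0.32, 0.70 and 0.42 for allo-MCd minus allo-WT, and allo-WT minus syngeneic became -0.21, -0.38 and -0.32 for Cd74 and -0.11, -0.26 and -0.22 for H2-Ab1. H2-Q1 became 0.05 under median scaling and 0.03 with voom, and H2-Ob 0.00 under median scaling, for allo-MCd minus syngeneic. H2-M3, called on the deposited scale, became 0.06 for allo-MCd minus allo-WT under quantile normalization (uncalled), and H2-Aa -0.03 for allo-WT minus syngeneic with voom. The methods' test compares means on the linear scale, where H2-Eb1 was 46.4 normalized counts higher in allo-WT than in syngeneic skin.

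With 1 mouse left out, class I lower calls were 1 to 3 for allo-MCd minus syngeneic and class II lower calls 0 to 2 for allo-WT minus syngeneic. Of all 696 genes, 166 to 311 were then called lower in the former comparison and 64 to 130 in the latter. Ranges with a turned sign were, for allo-MCd minus syngeneic, -0.13 to 0.05 for H2-K1, -0.08 to 0.50 for H2-Q2 and -0.16 to 0.20 for Tap1. For allo-MCd minus allo-WT they were -0.71 to 0.59 for H2-Q10, -0.37 to 0.44 for H2-DMb2 and -0.11 to 0.32 for H2-Ob. For allo-WT minus syngeneic they were -0.20 to 0.39 for Cd74, -0.05 to 0.32 for H2-Ab1, -0.56 to 0.02 for H2-DMa, -0.22 to 0.12 for H2-DMb1 and -0.20 to 0.23 for H2-Eb1.

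The labels do not say whether mice with the same number in different groups share more than that number. Correlations of their deviations were -0.11 to 0.21, and those of mice with unlike numbers -0.22 to 0.29, and a shared batch was not tested. With that number as a replicate block, H2-Q1 was called lower for allo-MCd minus syngeneic (-0.80, limma adjusted p = 0.0261). Uncalled signs turned for H2-Q2 (-0.14) and Tap1 (-0.20) in that comparison and for H2-DMb2 (-0.10) in allo-MCd minus allo-WT. The cause of these changes was not tested. With 3 to 5 mice a group, uncalled differences are bounded only by their standard errors, and values near background, H2-Q2 and H2-Ea-ps above all, have no resolved direction.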
